A study of Mus musculus with 6 samples.

Results

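Histone lysine methyltransferases and demethylases were followed in macrophages grown from mouse bone marrow and given resolvin D1 (RvD1), a lipid mediator made from docosahexaenoic acid that is known for its part in ending inflammation. The set was chosen by symbol: all genes named Kdm, Setd or Mll with a number, together with Ehmt1, Ehmt2, Ezh1, Ezh2, Suv39h1, Suv39h2, Setdb1, Setdb2, Nsd1, Whsc1, Ash1l and Dot1l. This gave 41 of the 38087 genes in the table, of which 40 could be tested. Kdm4d, a lysine demethylase of the Kdm4 family, was listed at 0 in 5 libraries and at 0.82 (log2 normalised read count) in untreated replicate 2, and was not tested. The set was put forward because several of its genes rose in these same libraries, so the changes, counts and p-values below describe these libraries and test nothing about the set as a whole.

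RNA sequencing (RNA-seq) had been done on 6 libraries, 3 from untreated macrophages and 3 from macrophages given 10 nM RvD1 for 6 h. Both groups came from marrow of male C57BL/6J mice, 8 to 10 weeks old by the protocol and 2 to 4 months by the age label. Marrow cells had been grown for 7 days with 10 ng/ml M-CSF, the growth factor that turns marrow progenitors into macrophages, and then plated again without it for 24 h before exposure. The labels describe no vehicle for the untreated cells and do not say whether replicates were separate mice or separate cultures, so the p-values cover only how far these samples spread, and that spread may be technical.

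Methyl groups on histone lysines are written by enzymes that take them from S-adenosylmethionine, nearly all through a SET domain, and are removed by the flavin-dependent LSD1-type enzymes or by JmjC enzymes, which need iron, oxygen and 2-oxoglutarate. Methylated lysine 4 of histone H3 (H3K4) marks promoters and enhancers, H3K36 and H3K79 mark the bodies of transcribed genes, and H3K9 and H3K27 are best known at silent chromatin. In macrophages the H3K27 demethylase Kdm6b, also called Jmjd3, is known as a gene induced by bacterial lipopolysaccharide. Mll1, Mll2, Mll3, Mll5, Setd8 and Whsc1 are the older symbols in the table for Kmt2a, Kmt2d, Kmt2c, Kmt2e, Kmt5a and Nsd2, and Mll4 was not analysed here.

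With RvD1, 5 members passed the limma test over all genes (Benjamini-Hochberg adjusted p under 0.05), all higher: Kdm3a, Mll3, Mll5, Setd2 and Kdm5a. None passed in the other direction. Of all 18899 genes tested, 211 passed, 1.12%, of which 106 were higher (0.561%) and 105 lower (0.556%). The rises were small, between 1.28-fold for Kdm5a and 1.5-fold for Kdm3a. By unadjusted p under 0.05, 14 members were higher and 5 lower, against 10.3% and 9.65% of all genes. All RvD1 libraries lay above all untreated ones for 15 members and below them for 5, against 12.6% and 12.8% of all genes. The median log2 fold change was 0.08 over the members and 0.00 over all genes tested, and 29 members had a positive and 11 a negative value. Across the whole table the fold changes varied with the length and GC content of transcripts, and 0 of 40 members passed after these were corrected for, where 8 were higher and 4 lower by unadjusted p. The shares of all genes after the correction were 0.0755% higher and 0.0809% lower at the adjusted threshold and 4.74% and 7.38% at the unadjusted one.

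**Figure D1:**
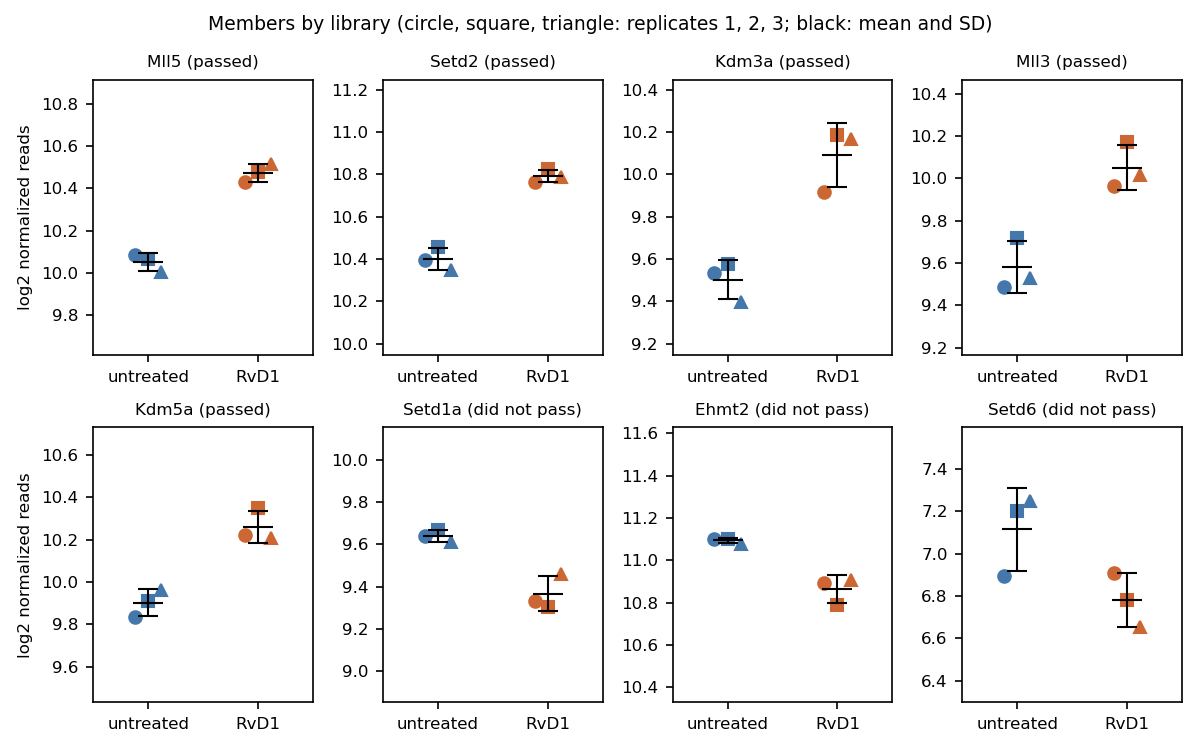
Log2 normalised reads (y axis, a separate range in each panel that does not start at 0) of 8 members in the untreated and RvD1 groups, with circle, square and triangle for replicates 1, 2 and 3 and black marks for the mean and SD. In the panels of Mll5, Setd2, Kdm3a, Mll3 and Kdm5a every RvD1 library lies above every untreated one, in those of Setd1a and Ehmt2 below, and in that of Setd6 the groups overlap.

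Kdm3a, a JmjC demethylase that removes mono- and dimethyl groups from H3K9, had the largest rise of the set. Its log2 normalised read counts were 9.53, 9.58 and 9.40 in the untreated libraries (replicates 1, 2 and 3, in this order here and below) and 9.91, 10.18 and 10.17 in the RvD1 libraries. The groups did not overlap, and RvD1 replicate 1 was the lowest of the exposed libraries. The log2 fold change was 0.59 (SE 0.09, 3 libraries against 3), a 1.5-fold rise with a 95% interval of 1.31 to 1.72 (limma adjusted p = 0.0337). After the correction it was 0.47 (limma adjusted p = 0.0991). The gene lies on chromosome 6 at 71588972 to 71632990, minus strand (mm10, GENCODE M21). It is known as a target of hypoxia-inducible factors, and a stretch near its start is shown for the core letters of their binding site. The RefSeq start used for the window lies inside the GENCODE gene, so the stretch is upstream of the RefSeq start and within an exon by GENCODE. The stretch is chr6:71632927-71632956 (minus strand, 5′ to 3′, RefSeq, GRCm38.p6), with the core in capitals, 27 bases before the RefSeq start.
Kdm3a: ccgggaggctgtGCGTGtcttgtgagagag
The core was searched as ACGTG or GCGTG on both strands in the 250 bases upstream of each gene's 5′-most RefSeq start. It was held by 18 of the 31 members with a RefSeq entry (58.1%) and by 38.6% of all 27025 genes with an entry. The latter were counted whether or not they were tested here, and shares among tested genes alone were not computed. Either form of the core holds a CpG dinucleotide, of which the members' windows had a median of 20 and those of all genes 6. The part of base composition in these shares was not tested. A match of letters does not show that a factor binds there.

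The other H3K9 JmjC enzymes are the Kdm4 family, which removes di- and trimethyl groups from H3K9 and, for some members, from H3K36, and Kdm3b, the close relative of Kdm3a. All 5 tested members of this role had a positive log2 fold change, and only Kdm3a passed the test. Kdm4c stood at 8.37, 8.48 and 8.37 in the untreated libraries and at 8.70, 8.84 and 8.65 in the RvD1 libraries. Its groups did not overlap, and its log2 fold change was 0.32 (SE 0.08) with a limma adjusted p of 0.0766. Kdm4b stood at 8.23, 8.29 and 8.24 untreated and at 8.59, 8.39 and 8.53 with RvD1, also without overlap, a difference of 0.25. Kdm4b was the only member whose transcript had 55% or more GC and whose RvD1 libraries all lay above the untreated ones. Its difference was larger after the correction, 0.36 (95% interval 0.22 to 0.50, limma adjusted p = 0.0807). Kdm3b differed by 0.15 without overlap between groups and Kdm4a by 0.025 with overlap.

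Among the H3K4 demethylases, the Kdm5 family, Kdm5a rose and its closest relative Kdm5b missed the threshold. Kdm5a, first described as a protein that binds the retinoblastoma protein, stood at 9.83, 9.91 and 9.96 in the untreated libraries and at 10.22, 10.35 and 10.21 in the RvD1 libraries. No RvD1 library was within the untreated range, and the fold was 1.28 (95% interval 1.16 to 1.42, limma adjusted p = 0.0442). After the correction the log2 difference fell from 0.36 to 0.13, with an interval of -0.019 to 0.27. Kdm5b stood at 9.08, 9.27 and 9.24 untreated and at 9.52, 9.57 and 9.55 with RvD1. Its groups were also apart, with a difference of 0.35 (SE 0.07) and a limma adjusted p of 0.0537. The X- and Y-linked copies Kdm5c and Kdm5d differed by 0.035 (groups overlapping) and 0.24 (groups apart). These copies are related in sequence, and how the counting treated reads that match both was not given, so their single values are uncertain.

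The 2 H3K27 demethylases did not pass the test, which 1.12% of all genes passed. Kdm6a, known as Utx, stood at 8.70, 8.73 and 8.52 in the untreated libraries and at 8.60, 9.07 and 8.91 in the RvD1 libraries. RvD1 replicate 1 lay within the untreated range, and the difference was 0.21 (SE 0.12). Kdm6a has a Y-linked copy, Uty, with which it could share reads. Kdm6b stood at 8.64, 8.72 and 8.52 untreated and at 8.70, 8.56 and 8.49 with RvD1, with overlapping groups and a difference of -0.04 (95% interval -0.23 to 0.15).

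Kdm2a and Kdm2b, H3K36 demethylases that bind unmethylated CpG-rich DNA, had values of opposite sign, and neither passed. Kdm2a stood at 10.87, 10.85 and 10.90 in the untreated libraries and 11.01, 11.05 and 11.04 in the RvD1 libraries, without overlap, a difference of 0.16 (SE 0.05). Kdm2b stood at 8.996, 9.07 and 9.08 untreated and at 8.92, 8.86 and 8.97 with RvD1, apart the other way, a difference of -0.13 (SE 0.06). The contrast between these relatives was not tested. The LSD1-type enzymes act on mono- and dimethylated lysines and are the members that use flavin. Kdm1a, or LSD1 itself, stood at 9.88, 9.84 and 9.79 untreated and at 9.86, 9.88 and 9.93 with RvD1, with overlap and a difference of 0.05 (95% interval -0.07 to 0.18). Kdm1b stood at 7.60, 7.63 and 8.00 untreated and at 7.72, 7.97 and 7.76 with RvD1, where untreated replicate 3 was higher than every RvD1 library.

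Of the genes grouped here as H3K4 methyltransferases, Mll3 and Mll5 rose and the others did not pass. Mll3 is a catalytic subunit of the complexes that monomethylate H3K4 at enhancers. It stood at 9.49, 9.72 and 9.53 in the untreated libraries and at 9.96, 10.17 and 10.01 in the RvD1 libraries. Untreated replicate 2 and RvD1 replicate 2 were each the highest of their group, and the groups did not overlap. The fold was 1.39 (95% interval 1.22 to 1.58, limma adjusted p = 0.0413), and the log2 difference of 0.47 became 0.27 after the correction (limma adjusted p = 0.238). Mll5 is grouped with these genes by name, although its SET domain is not known as an active H3K4 methyltransferase. It stood at 10.08, 10.06 and 10.00 untreated and at 10.43, 10.47 and 10.51 with RvD1, with no overlap. The fold was 1.34 (95% interval 1.23 to 1.46, limma adjusted p = 0.0251), and the log2 difference of 0.42 became 0.27 after the correction (limma adjusted p = 0.103). Mll3 lies on chromosome 5 at 25271798 to 25498783, minus strand, and Mll5 on the same chromosome at 23434441 to 23504235, plus strand.

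The remaining H3K4 enzymes did not move as one. Mll1, the gene rearranged in mixed-lineage leukaemia, had a difference of 0.34 with groups apart (limma adjusted p = 0.054). Mll2, the enhancer enzyme paired with Mll3, differed by 0.017 (95% interval -0.18 to 0.22). Setd1a, a catalytic subunit of the complexes that trimethylate H3K4 at promoters, had the lowest value of this role, -0.27, with all RvD1 libraries below the untreated ones (limma adjusted p = 0.0745). Its relative Setd1b differed by -0.11, also with groups apart. Setd7, a monomethyltransferase that also acts on proteins other than histones, differed by -0.012. The median of the 7 genes in this group, Mll3 and Mll5 included, was 0.02, with 4 values above 0 and 3 below.

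Setd2, the enzyme responsible for H3K36 trimethylation behind elongating polymerase, rose. It stood at 10.40, 10.46 and 10.35 in the untreated libraries and at 10.77, 10.82 and 10.79 in the RvD1 libraries, with no overlap. The fold was 1.31 (95% interval 1.21 to 1.43, limma adjusted p = 0.0314), and the log2 difference of 0.39 became 0.20 after the correction (limma adjusted p = 0.168). The other H3K36 enzymes place mono- and dimethyl groups. Ash1l stood at 10.36, 10.40 and 10.24 untreated and at 10.55, 10.70 and 10.67 with RvD1, apart, with a difference of 0.31 (SE 0.07) and a limma adjusted p of 0.0653. Nsd1 differed by 0.21 with groups apart and Whsc1 by 0.08 with overlap. All 4 H3K36 enzymes had positive values, with a median of 0.26, and after the correction, where Whsc1 stood at -0.15, the median was 0.05.

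Setd2 lies on chromosome 9 at 110532597 to 110618633, plus strand. Of the members that rose, Mll5 and Kdm5a had no RefSeq entry among the promoters used, and the window of Kdm3a overlaps an exon. The promoters of Setd2 and Mll3, whose windows overlap no GENCODE exon, are shown with their GC boxes, the letters bound by Sp-family factors. Both are the 250 bases upstream of the start, 5′ to 3′ on the gene's strand (RefSeq, GRCm38.p6), chr9:110532347-110532596 for Setd2 and chr5:25498784-25499033 for Mll3. Capitals mark GGGCGG on either strand, where neighbouring matches may run together.
Setd2: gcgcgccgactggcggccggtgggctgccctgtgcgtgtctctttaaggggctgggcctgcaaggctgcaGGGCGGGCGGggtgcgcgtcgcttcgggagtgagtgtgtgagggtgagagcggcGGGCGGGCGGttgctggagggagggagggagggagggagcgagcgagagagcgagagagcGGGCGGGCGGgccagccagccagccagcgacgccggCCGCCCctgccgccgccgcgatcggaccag
Mll3: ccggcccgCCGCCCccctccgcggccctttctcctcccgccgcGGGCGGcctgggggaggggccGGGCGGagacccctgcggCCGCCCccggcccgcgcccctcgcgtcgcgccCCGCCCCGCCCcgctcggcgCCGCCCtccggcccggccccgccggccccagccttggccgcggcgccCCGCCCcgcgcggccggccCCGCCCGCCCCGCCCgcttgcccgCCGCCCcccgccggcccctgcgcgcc
Setd2 held 7 matches in a window of 76.0% GC, and Mll3 held 12 in a window of 91.6% GC. A GC box was held by 18 of the 31 members with an entry (58.1%) and by 33.0% of all genes. For promoters, all genes means those with a RefSeq entry, tested here or not. A TATAAA match was held by 1 member (3.23%) and 13.0% of all genes, and CCAAT on either strand by 12 members (38.7%) and 34.5%. The members' windows had a median of 62.0% GC and 20 CpG dinucleotides, and those of all genes 52.0% and 6.

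**Figure D2:**
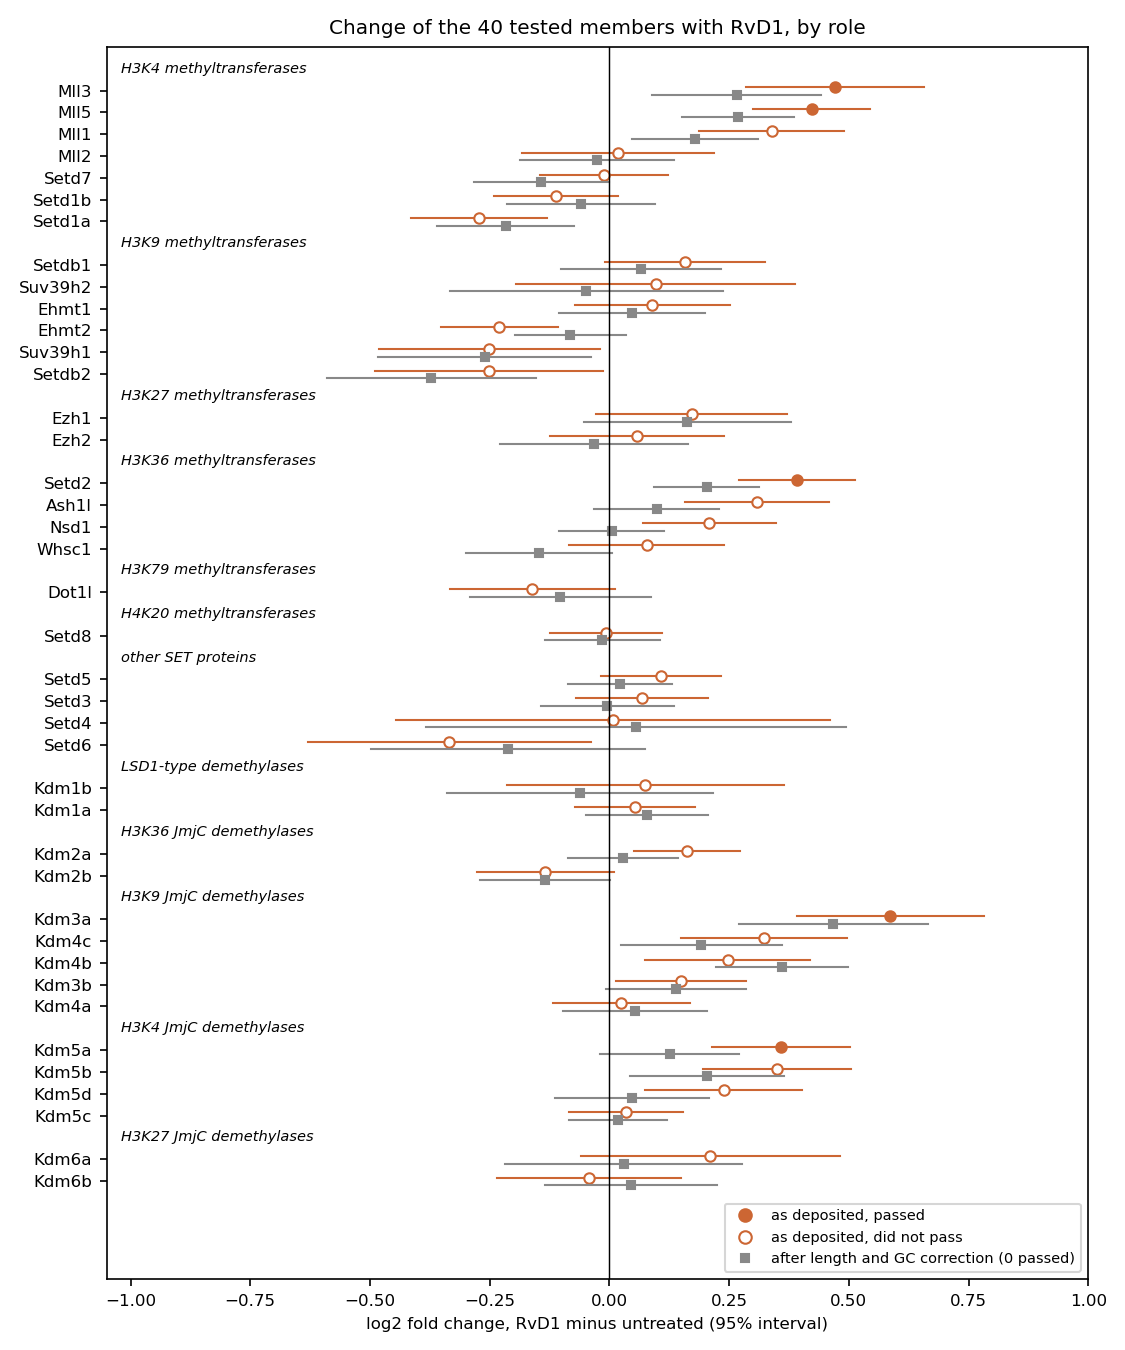
Log2 fold change of the 40 tested members with RvD1 (x axis, RvD1 minus untreated, with 95% intervals), grouped by role. Circles are the values as deposited, filled for the 5 members that passed the limma test, and grey squares are the values after the length and GC correction, where 0 passed. Setd2, Ash1l, Nsd1 and Whsc1 move left with the correction and Kdm4b moves right.

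The methyltransferases of the silencing marks, H3K9 and H3K27, showed no call, which for so few genes is near the 1.12% of all genes called. At an unadjusted p under 0.05, 0 of the 6 for H3K9 were higher and 3 lower. Neither of the 2 for H3K27 was under 0.05. The shares of all genes were 10.3% higher and 9.65% lower. Of the 6 H3K9 methyltransferases, 3 had positive and 3 negative values, with a median of -0.07. Ehmt2, known as G9a, stood at 11.10, 11.10 and 11.08 in the untreated libraries and 10.89, 10.79 and 10.91 in the RvD1 libraries. All RvD1 libraries were lower, and the difference was -0.23 (SE 0.05, limma adjusted p = 0.0759), or -0.08 after the correction. Its partner Ehmt1 differed by 0.09. Suv39h1, which trimethylates H3K9 in heterochromatin, stood at 9.13, 8.86 and 8.86 untreated and at 8.86, 8.59 and 8.65 with RvD1, and RvD1 replicate 1 touched the untreated range. Its difference was -0.25 (SE 0.10), its relative Suv39h2 differed by 0.10 with overlap, and Setdb1, which silences retroelements, by 0.16 with overlap. Setdb2 stood at 7.15, 7.14 and 7.15 untreated and at 6.80, 7.05 and 6.83 with RvD1, all RvD1 libraries lower. Its difference of -0.25 was farther from 0 after the correction, -0.37 (95% interval -0.59 to -0.15, limma adjusted p = 0.19).

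Ezh1 and Ezh2 are the alternative catalytic subunits of Polycomb repressive complex 2, which methylates H3K27. Ezh1 stood at 9.01, 9.07 and 9.05 in the untreated libraries and 9.02, 9.27 and 9.35 in the RvD1 libraries, with RvD1 replicate 1 within the untreated range and a difference of 0.17 (SE 0.09). Ezh2, the form known from dividing cells, stood at 9.02, 8.93 and 8.84 untreated and at 9.09, 8.86 and 9.01 with RvD1, overlapping, with a difference of 0.06 (95% interval -0.12 to 0.24). Dot1l, the H3K79 methyltransferase and the only methyltransferase of the set without a SET domain, stood at 10.86, 10.85 and 10.62 untreated and at 10.63, 10.67 and 10.55 with RvD1, overlapping, with a difference of -0.16 (SE 0.08). Setd8, which monomethylates H4K20, stood at 10.59, 10.65 and 10.58 untreated and at 10.57, 10.63 and 10.60 with RvD1, a difference of -0.0074 with a 95% interval of -0.12 to 0.11.

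Other SET proteins act mainly or partly on proteins that are not histones. Setd6, known to methylate the NF-kappaB subunit RelA, stood at 6.89, 7.20 and 7.25 in the untreated libraries and 6.91, 6.78 and 6.65 in the RvD1 libraries. It had the lowest log2 fold change of the set, -0.33 (SE 0.13), with untreated replicate 1 within the RvD1 range. Setd5 stood at 10.66, 10.63 and 10.63 untreated and at 10.83, 10.70 and 10.71 with RvD1, apart, with a difference of 0.11 (SE 0.06). Setd3, which methylates a histidine of actin, differed by 0.07 and the thinly read Setd4 by 0.0072 (95% interval -0.45 to 0.46), both with overlap.

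The 25 methyltransferases and other SET proteins had a median log2 fold change of 0.07, 16 positive values and 3 calls, and the 15 demethylases a median of 0.16, 13 positive values and 2 calls. All these calls were higher, as were 0.561% of all genes. After the correction the medians were -0.01 and 0.05, with 11 and 13 positive values. For H3K4 both a methyltransferase, Mll3, and a demethylase, Kdm5a, rose.

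The changes were sorted by the base composition of the transcripts. Across the 40 members, Spearman's rho between log2 fold change and GC content was -0.518, and across 13024 genes of mean log2 value 5 or more it was -0.571. With transcript length it was 0.44 and 0.352. The points share the same 6 libraries, and genes are not independent replicates. The 23 members under 50% GC had a median of 0.16 and all 5 calls. The 6797 genes of that range had a median of 0.09, with 87 calls higher against 13 lower. The 8 members at 55% GC or more had a median of -0.14 and 2 positive values, and the 2772 genes of that range had a median of -0.14. The 12 members over 6 kb and under 50% GC had a median of 0.27, with 11 positive values and 4 calls. The 1157 genes alike in length and GC had a median of 0.18, with 87.6% positive values and 47 calls higher against 1 lower. After the correction these medians were 0.07 and -0.01.

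**Figure D3:**
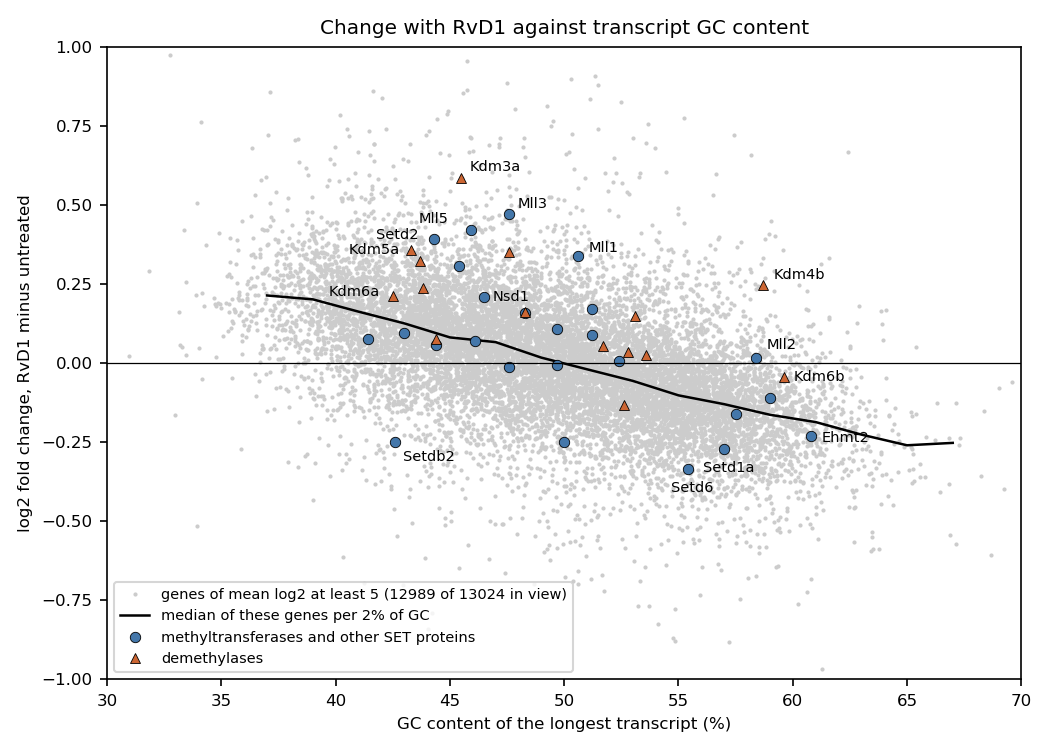
Log2 fold change with RvD1 (y axis) against GC content of the longest transcript in percent (x axis). Grey dots are genes of mean log2 value 5 or more (12989 of 13024 in view), the black line is their median per 2% of GC, circles are methyltransferases and other SET proteins and triangles demethylases; the line falls from left to right, Kdm3a and Mll3 lie above it at the left, Kdm4b above it at the right and Setdb2 below it at the left.

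Relatives that share a symbol stem, such as Kdm5a and Kdm5b, were set side by side as 24 pairs over 12 families, without a test of their differences and with members recurring among the pairs. The member with less GC had the higher log2 fold change in 18 pairs and the lower one in 6. Among the 18, Mll3 at 47.6% GC had 0.47 and Mll2 at 58.4% had 0.017. Kdm6a at 42.5% had 0.21, and Kdm6b at 59.6% had -0.04. Among the 6, Setdb2 at 42.6% had -0.25 and Setdb1 at 48.3% had 0.16. Ezh2 at 44.4% had 0.06 and Ezh1 at 51.2% had 0.17, and Kdm4a at 53.6% had 0.025 against 0.25 for Kdm4b at 58.7%. The part of GC content and length in the members' changes was not tested further.

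Single libraries carried unequal weight. The members' median deviation from their means was -0.04, -0.05 and -0.08 in the untreated libraries and 0.045, 0.03 and 0.07 in the RvD1 libraries. Across all genes of mean log2 value 5 or more, the slope of deviation on GC content was steepest in RvD1 replicate 2, -0.11 per SD. It was -0.01 and -0.03 in RvD1 replicates 1 and 3 and 0.04 to 0.06 in the untreated libraries. RvD1 replicate 2 was the highest RvD1 library for 18 of 40 members, and untreated replicate 3 was the lowest untreated library for 21. These 2 counts were not made over all genes, so they cannot be read as particular to the members. Of the 6 fits that leave out 1 library, the 5 without untreated replicate 1, 2 or 3 or RvD1 replicate 2 or 3 called 0 members. In the whole table each of these called at most 1 gene higher and 4 lower. The fit without RvD1 replicate 1 called 7 members, adding Ash1l and Mll1, beside 239 genes higher and 212 lower. The members' counts thus followed those of the whole table. The sizes moved little: without 1 library Kdm3a was between 0.53 and 0.67, Mll3 between 0.41 and 0.54, Mll5 between 0.40 and 0.44, Setd2 between 0.37 and 0.42 and Kdm5a between 0.31 and 0.39 on the log2 scale.

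Levels, which had no part in choosing the set, were compared per kb of the longest transcript in the untreated libraries. Setd8 was highest at a log2 level of 9.16 ± 0.04 (SD, n = 3), followed by Ehmt2 at 9.09 ± 0.01, Setd3 at 8.31 ± 0.04, Kdm1a at 8.24 ± 0.04 and Kdm4a at 8.08 ± 0.07. The ranges of Setd8 and Ehmt2 did not overlap, and neither did those of Ehmt2 and Setd3, while Setd3 and Kdm1a overlapped. The lowest were Setd4 at 3.62 ± 0.24, Suv39h2 at 4.36 ± 0.16, Kdm5d at 5.06 ± 0.03, Kdm1b at 5.43 ± 0.23 and Setdb2 at 5.54 ± 0.01. Among 39 neighbouring pairs in the order, 13 did not overlap. The median member stood at 6.96, the 47.5th percentile of genes tested at a mean of 5 or more. With the median protein-coding transcript length in place of the longest, Spearman's rho between the orders was 0.868 and Nsd1 moved from rank 22 to rank 1. Across members, rho between level and log2 fold change was -0.191 (n = 40).

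**Figure D4:**
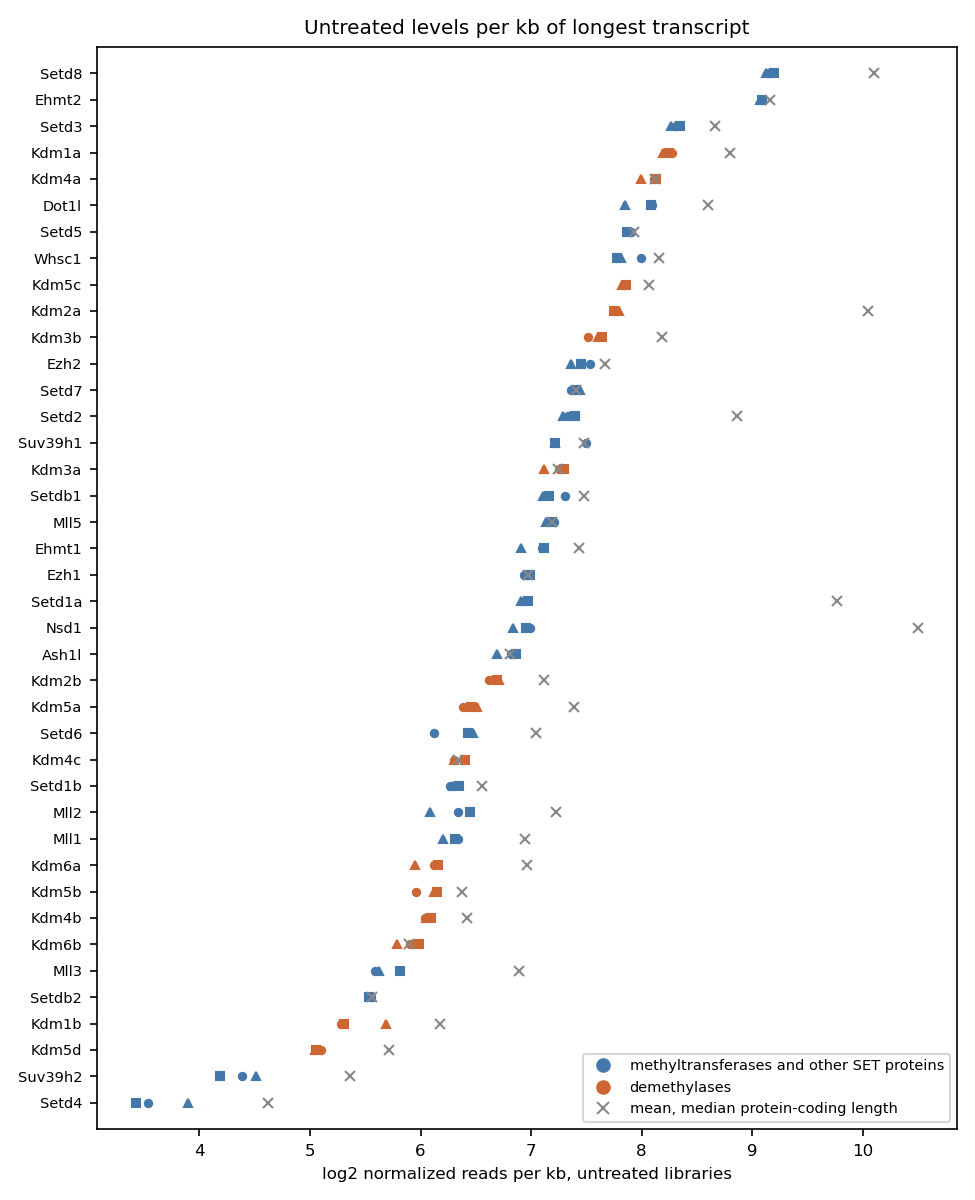
Log2 normalised reads per kb of the longest transcript (x axis) for the 40 tested members in order of level, with circle, square and triangle for untreated replicates 1, 2 and 3, blue for methyltransferases and other SET proteins and orange for demethylases. Crosses are the mean with the median protein-coding length instead; Setd8 at 9.16 and Ehmt2 at 9.09 lead, Setd4 at 3.62 is lowest, and the cross of Nsd1 lies farthest from its points.

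The listed proteins that work with these enzymes did not pass the test, which 1.12% of all genes passed. For lists this short, no call is near that share. At an unadjusted p under 0.05 the shares of all genes were 10.3% higher and 9.65% lower, for comparison with the counts below. None of 12 COMPASS partners of the H3K4 enzymes, 9 Polycomb repressive complex 2 partners or 8 LSD1 partners was called in either direction by limma, and the unadjusted p was under 0.05 for 1 higher and 2 lower, 2 and 2, and 2 and 2. The smallest p-values belonged to Cxxc1, the CpG-binding subunit that targets Setd1 complexes, with a log2 fold change of -0.28, to Suz12, a core subunit of the H3K27 complex, with 0.30, and to Hmg20b of the LSD1 complex, with -0.33. Of 26 lysine methylation enzymes with other symbols none was called, the unadjusted p was under 0.05 for 8 higher and 4 lower, and their median was 0.11. Jmjd1c, the third relative of Kdm3a and Kdm3b, had the smallest p among them, with 0.42 and a limma adjusted p of 0.0511. After the length and GC correction Jmjd1c stood at 0.21 (limma adjusted p = 0.32). The median of the 26 was then -0.0087, with 13 positive and 13 negative values. Of 20 readers of methylated lysine none was called, and the unadjusted p was under 0.05 for 5 higher and 2 lower. Among them Mphosph8, which binds methylated H3K9, had the smallest p, with 0.31. After the correction Cxxc1 stood at -0.13, Suz12 at 0.13, Hmg20b at -0.15 and Mphosph8 at 0.19.

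The libraries held an estimated 9.05 to 14.3 M reads (M, 10 to the power of 6) in the untreated group and 11.2 to 16.3 M in the RvD1 group, from the steps between low values, of which 40.9% to 51.4% were whole within 0.02 reads. Macrophage markers were above 0 for 8 of 8 genes, with summed log2 levels of 16.59 to 16.97 in the untreated and 16.65 to 17.01 in the RvD1 libraries. Summed fibroblast markers were also high, at 15.06 to 15.27 and 14.89 to 15.42, and neutrophil markers stood at 10.94 to 12.77 and 11.36 to 12.69. A few genes carried these sums. Over the 6 libraries Col1a1 and Col1a2 stood at 13.83 to 14.39, Pdgfra at 8.77 to 9.49 and Dcn at 4.53 to 5.72. Of the neutrophil markers, S100a8 and S100a9 stood at 9.35 to 12.21, and Ly6g, Elane, Mpo and Retnlg at 0.1 to 6.78. Endothelial markers ranged from 8.32 to 9.04 and from 8.69 to 10.18. T cell markers summed to 0 in the untreated libraries and to 0.99 at most with RvD1. The part of these cells in the members' values was not tested, and in bulk RNA fewer cells of a type and less RNA per cell cannot be told apart.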

How the data were processed

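The deposited table gave 1 value per gene and library on a log2 scale, a base read from the values and not stated in the labels; per the submitters' processing notes, reads had been aligned with TopHat2 2.0.7 to mm10, and the counting and normalisation were not given in the sources used here. Per the labels' protocols, poly-A libraries were made from 100 to 400 ng of RNA. Since the values were not counts, limma 3.58.1 (R 4.3.3) was run on them as deposited, with a trended variance prior (residual df 4, prior df 4.62), on the 18899 genes above 0 in at least 3 of 6 libraries. Tests were two-sided, with Benjamini-Hochberg adjustment over all genes tested and a threshold of 0.05. For the correction, natural splines with 4 interior knots in log2 length and in GC content of the longest GENCODE M21 transcript (36308 IDs matched, 95.3%; 18549 genes tested) were fitted to each library's deviations from the gene means and subtracted. Promoters came from RefSeq. Tables were handled in Python 3.11.15 with pandas 2.3.3 and figures drawn with matplotlib 3.10.9.

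Members and gene lists were chosen with earlier results of these data known. Values in every library are given for members past the test and for those with the 2 smallest p-values in each role; Kdm4b, Setdb2, Setd1a and the other members given in more detail than level and change were chosen after their values were seen. Of each partner list, the gene with the smallest p is named. Alternatives covered the filter, scaling, pseudocount, variance prior, replicate block, length and GC correction, and each library left out.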

Additional observations from a re-analysis of the deposited data

How the results depend on the processing

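Against 5 members called higher and 0 lower by limma, with 106 and 105 genes in the whole table, 0 were called in 3 fits that also left few calls in the table: with genes above 0 in only 1 library kept (5 higher and 7 lower of 21045 genes), with one variance prior for all genes (1 and 0) and after the length and GC correction (14 and 15). Among genes with a mean log2 value of 5 or more, 8 members were called higher, with Ash1l, Kdm5b and Mll1 added, beside 218 higher and 246 lower of 13176 genes. Quantile normalisation, equal medians and log2(antilog + 16) gave 5 members each, beside 105 and 129, 91 and 99, and 76 and 82 genes. In the 3 fits named first, the unadjusted p was under 0.05 for 8 to 14 members higher and 4 to 6 lower. Leaving out each library gave 0 to 7 higher and 0 lower; the unadjusted p was under 0.05 for 13 to 16 members higher and 2 to 4 lower. In the whole table they called 0 to 5 genes, except the fit without RvD1 replicate 1, which called 239 higher and 212 lower. The median log2 fold change of the set was 0.0836, 0.0287 after the correction with or without the block, and 0.0739 to 0.1108 with a library left out.

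Correlations of deviations between samples of the same replicate number were 0.301, -0.0801 and 0.417. Between samples of different numbers they ran from -0.393 to 0.0879. The labels do not say that equal numbers are pairs, so the main fit left them unpaired. Whether they are pairs was not settled by these values. A fit with the replicate block called 11 members higher and 3 lower (1049 and 847 genes in the whole table), and the replicate block with the correction called 5 higher and 1 lower, Suv39h1 (310 and 461 of 18549 genes).

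Each of the 5 called members kept its direction in 15 of 15 alternatives, but in most of these the direction could not change. Altering only the filter, the variance prior or the block leaves the log2 fold change as it was. Leaving out a library cannot reverse groups that do not overlap. Kdm5a was called in 6 of the 15 and the others in 7 each. Adjusted p-values over the alternatives ranged from 0.0048 to 0.176 for Mll5, 0.00426 to 0.238 for Mll3, 0.00582 to 0.178 for Kdm3a, 0.0109 to 0.487 for Kdm5a and 0.00453 to 0.178 for Setd2. After the correction, with or without the replicate block, Ezh2 changed sign to -0.0327, Kdm6b to 0.045 and Kdm1b to -0.0621. With a library left out, Setd8 ranged from -0.023 to 0.0135, Kdm6b from -0.10 to 0.0056 and Kdm1b from -0.0027 to 0.20. The cause of these shifts was not tested. Of 22 untreated levels, 16 moved by more than the spread between replicates with the median protein-coding length. Count models were not run, since the values are not counts.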

Other observations

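Enzymes of other chromatin marks were measured beside the lysine methylation enzymes. None of 7 histone acetyltransferases, 18 rows of histone deacetylases, 8 DNA methylation enzymes or 8 arginine methyltransferases passed the limma test in either direction. Of all genes 1.12% passed. At an unadjusted p under 0.05 they had 1 higher and 0 lower, 2 and 1, 2 and 0, and 0 and 1, against 10.3% and 9.65% of all genes. Ep300, an acetyltransferase recruited to enhancers, stood at 10.72, 10.89 and 10.85 in the untreated libraries and at 10.98, 11.19 and 11.11 in the RvD1 libraries, a difference of 0.27 (limma adjusted p = 0.0977). Dnmt3a, a DNA methyltransferase, stood at 10.94, 10.97 and 10.93 and then at 11.17, 11.13 and 11.12, a difference of 0.19 (limma adjusted p = 0.0867). The deacetylase Sirt1 differed by 0.25 and the arginine methyltransferase Prmt1 by -0.27 (limma adjusted p = 0.0948 and 0.111). After the length and GC correction Ep300 stood at 0.18, Dnmt3a and Sirt1 at 0.11 each.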
